A study of Mus musculus with 6 samples.

Results

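The genes described here are those that make prostaglandins, bind prostaglandin E2 and break it down, and they were followed in NIH3T3 mouse fibroblasts (Normal cells) with and without forskolin (FSK). Members were taken by symbol from a list of 10 genes, and 9 of them had a probe set that the array annotation pairs with that symbol alone, 1 probe set each, among 16797 genes measured. Ptgs1 had no such probe set and has no value here. The members were Ptgs2, Ptges, Ptges2 and Ptgis on the side of synthesis, the receptors Ptger1, Ptger2, Ptger3 and Ptger4, and the inactivating enzyme gene Hpgd.

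The data are 6 Affymetrix arrays of total RNA, 3 of FSK-treated cells (NF) and 3 of cells without FSK (N), named biological replicates in the labels. Both groups are the same immortalized, untransformed fibroblast line, plated in 25 mM glucose, moved after 16 h to medium with 1 mM glucose (Low Glucose, LG) and harvested 72 h later. The study chose this harvest time because the medium held no glucose by then, with or without FSK. LG thus names the glucose level at the start, and both groups were starved of glucose at harvest. FSK was added to the NF cultures at 10 μM, once 24 h and again 48 h into growth in LG. N cells received none, and the legends of the study name DMSO as the vehicle. The comparison of NF with N asks which mRNAs differ in LG after activation of the cAMP-PKA axis, since FSK activates adenylate cyclase. As total RNA of a culture was measured, a smaller number of cells that express a gene and less RNA per cell cannot be told apart.

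Prostaglandins are made from arachidonic acid, which phospholipases release from membranes. The cyclooxygenases, encoded by Ptgs1 and Ptgs2, turn it into prostaglandin H2, and terminal synthases turn that into the prostaglandin that leaves the cell, prostaglandin E2 in the case of Ptges and Ptges2 and prostacyclin in the case of Ptgis. Prostaglandin E2 acts on 4 receptors at the cell surface, of which those encoded by Ptger2 and Ptger4 raise cAMP, that of Ptger3 mostly lowers it and that of Ptger1 raises calcium. Fibroblasts are a well known source of prostaglandin E2, and Ptgs2 is an inducible gene that answers to serum, cytokines, cell stress and, in many cells, cAMP.

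Over all genes, 428 differed between NF and N, 307 higher and 121 lower in NF (limma, Benjamini-Hochberg adjusted p under 0.05 over the 18197 probe sets with 1 gene). Once the arrays were quantile normalized a second time, the split was 497 higher and 373 lower. N replicate 1 stood apart: its differences from the mean of the other N arrays had an SD of 0.475 on the log2 scale. The other 5 arrays, each set against its own group, had 0.202 to 0.331. Its median difference over probe sets with a mean log2 of 5 to 8 was -0.493, against -0.0529 to 0.359 for the others. Low values on N replicate 1 raise NF minus N. Of 14 fibroblast markers 11 were measured, and all 11 had a mean log2 expression at or above 3.70, the median over the probe sets tested. All 5 endothelial and all 4 mast cell markers lay below it, as did 4 of 6 epithelial and 5 of 7 macrophage markers. The macrophage markers averaged 3.76 to 3.92 in the NF arrays and 3.33 to 3.69 in the N arrays, and 1 of the 7, Cd14, rose in NF (log2 difference 1.05, adjusted p = 0.0439 from limma). Cd14 was lowest on N replicate 1, at 4.63, against 5.35 and 5.16 on the other N arrays. Lyz2, of the same list, had 6.34, 6.06 and 6.16 in NF against 4.07, 5.98 and 5.54 in N, so that the groups did not overlap (log2 difference 0.99, adjusted p = 0.371). The other 5 measured macrophage markers, Ptprc, Itgam, Cd68, Fcer1g and Tyrobp, were below 3.70 on every array, with log2 differences between -0.02 and 0.21. Of the 11 fibroblast markers 1, Col3a1, also rose in NF (log2 difference 1.33, adjusted p = 0.0157 from limma), where 1.83% of all genes rose. The groups lay wholly apart on the higher side in 3 of these 11 and in 2 of the 7 macrophage markers. On the lower side 0 of either list lay apart. Over all genes 10.5% were apart on the higher side and 9.70% on the lower. Cd14, Lyz2 and Col3a1 were named after their values were seen, and the part of these lists in the results that follow was not tested.

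No member passed the test between FSK-treated and untreated Normal cells. Of the 9 members, 0 reached an adjusted p under 0.05 in limma, where 2.55% of all genes did. At an unadjusted p under 0.05 there were 2, Ptges with a higher and Ptgs2 with a lower mean in NF, where 13.8% of all genes reached that p, and the methods' t-test gave 0 at that p (11.0% of all genes). For the arrays the study's methods name limma, and the methods' t-test is the one they name for data sets in general. The 3 NF values lay wholly apart from the 3 N values in 1 member, Ptges, and in 20.2% of all genes. Ptges was apart on the higher side, as were 10.5% of all genes, and 0 members were apart on the lower side, as were 9.70%. The median log2 difference, NF minus N, was -0.02 over the members and -0.03 over all genes, with 4 members higher and 5 lower. The members thus had no shared direction, and those with the greatest differences in size, Ptgs2 and Ptges, had opposite signs.

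**Figure D1:**
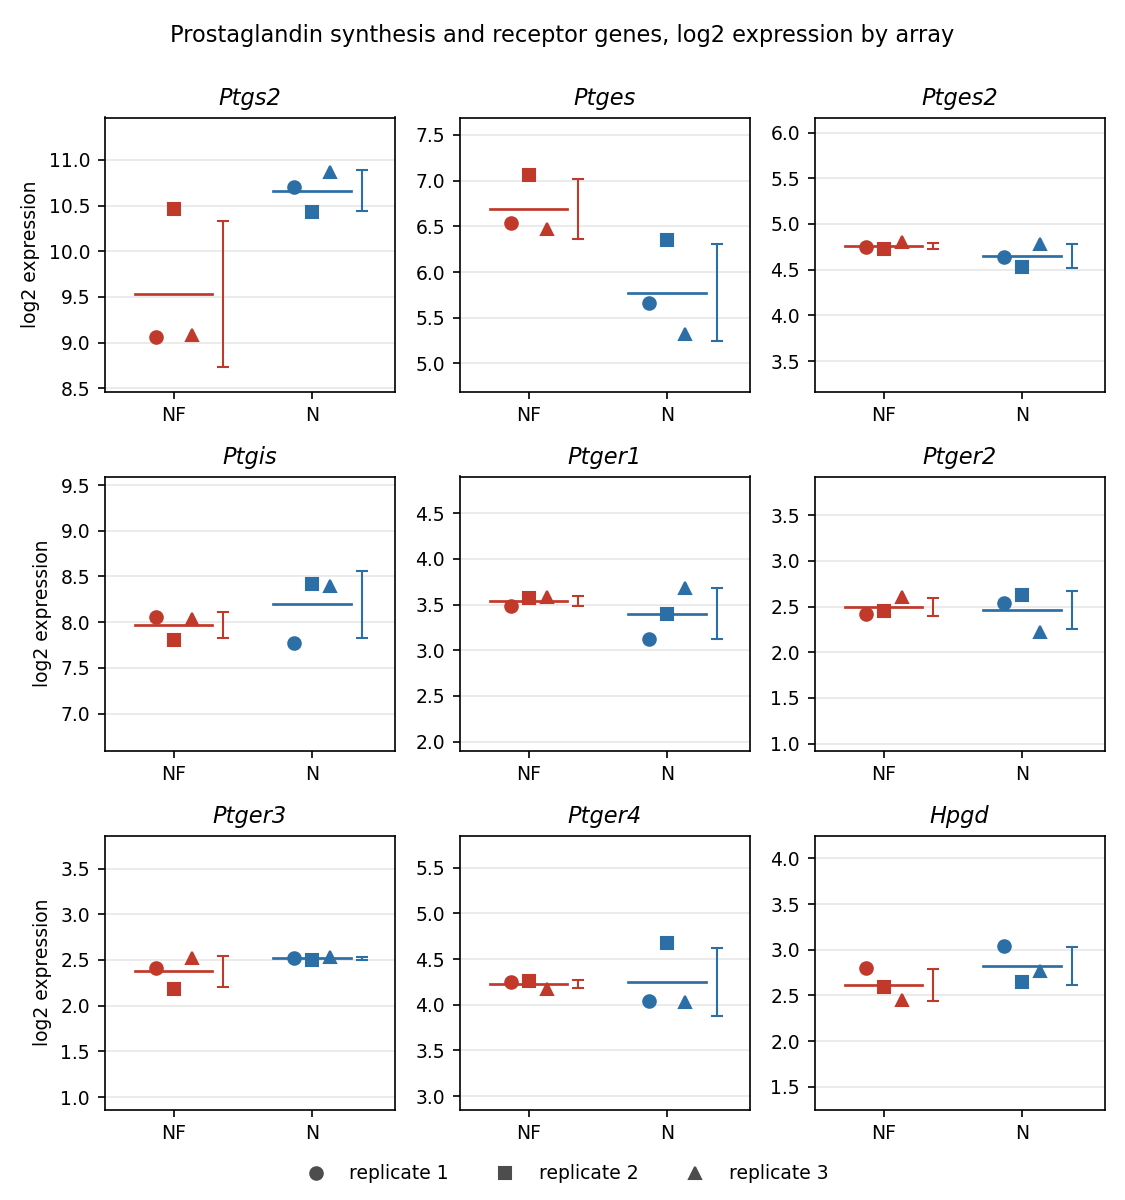
Log2 expression (vertical axis, each panel spanning 3 log2 units) of the 9 members on each of the 3 NF and 3 N arrays, with symbols for replicate numbers, a line at the group mean and a bar of 1 SD on each side of it. In Ptgs2, NF replicate 2 at 10.46 lies among the N arrays while the other NF arrays lie near 9.1, and in Ptges all NF points lie above all N points.

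Ptgs2, which encodes the inducible cyclooxygenase, had a log2 expression of 9.06, 10.46 and 9.08 in NF replicates 1, 2 and 3, against 10.70, 10.43 and 10.86 in N replicates 1, 2 and 3. NF replicates 1 and 3 were thus below every N array, whereas NF replicate 2 was level with N replicate 2, so that the groups overlapped. The means were 9.53 ± 0.80 in NF and 10.66 ± 0.22 in N (SD, n = 3 each). The log2 difference was -1.13 (standard error 0.36, 95% interval -1.95 to -0.31), which is 2.19-fold lower in NF, with an adjusted p = 0.193 from limma and an exact 2-sided permutation p = 0.2. The smallest p that 3 arrays against 3 allow in that permutation test is 0.1, so it cannot reach 0.05 here. The unadjusted p from limma was 0.0133, and the difference did not pass once p-values were adjusted over all probe sets. One array decided the call: without NF replicate 2 the log2 difference was -1.59 and the adjusted p = 0.0174 from limma. Over all the alternatives tried the p ranged from 0.00260 to 0.597, both ends from limma after adjustment. The log2 difference stayed between -1.59 and -0.89. Alternatives that change only the test, the adjustment of p or the probe sets kept leave this difference as it was. Their sign was fixed in advance and says nothing on stability.

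The promoter of Ptgs2 is shown because this gene had the greatest difference in size among the members, though it did not pass the test. The sequence is from RefSeq on GRCm38.p6, chr1:150099781-150100030 on the plus strand, the 250 bases before the annotated start, with capitals at matches to the motifs searched. A second run, chr1:150100036-150100059, shows the match to the core of a cAMP response element (the short site) just after that start, where the capitals also take in an overlapping E-box.
Ptgs2 upstream: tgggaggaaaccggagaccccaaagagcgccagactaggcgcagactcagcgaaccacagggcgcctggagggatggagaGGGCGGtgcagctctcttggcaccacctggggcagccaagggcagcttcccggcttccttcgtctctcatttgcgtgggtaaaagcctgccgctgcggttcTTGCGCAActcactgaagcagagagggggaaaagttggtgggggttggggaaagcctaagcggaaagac
Ptgs2 short site: caccactaCGTCACGTGgagtccg
The motifs were the palindromic cAMP response element TGACGTCA, its core TGACG, called the short site here, the C/EBP palindrome TTGCGCAA, the E-box CACGTG, the GC box GGGCGG and the TATA box TATAAA, each on both strands of windows of 300 bases, 250 before and 50 after the start. Ptgs2 held the short site on its minus strand at 14 to 18 bases after the start, overlapping an E-box at 17 to 22, a C/EBP palindrome at positions -69 to -62 and a GC box at positions -170 to -165, counted from the start. Among all 32851 mouse windows, 20.8% held the short site, 7.15% the E-box, 35.7% the GC box and 0.183% the C/EBP palindrome. The full cAMP response element, found in 1.79% of all windows, was in 0 of the 8 member windows at hand, and of these 8 the short site was in that of Ptgs2 alone. No window was at hand for Ptgis and Ptger1. These are matches of letters, placed by the annotated start. Neither binding to them nor where transcription begins was measured in these data.

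Ptges, the gene of the inducible microsomal prostaglandin E synthase that works together with cyclooxygenase 2, ran the other way. Its log2 expression was 6.54, 7.06 and 6.47 in NF replicates 1, 2 and 3, against 5.66, 6.35 and 5.32 in N replicates 1, 2 and 3. Every NF array was above every N array, though NF replicate 3 exceeded N replicate 2 by little. The means were 6.69 ± 0.32 in NF and 5.78 ± 0.53 in N (SD, n = 3 each). The log2 difference was 0.91 (standard error 0.28, 95% interval 0.28 to 1.55), 1.88-fold higher in NF, with an adjusted p = 0.170 from limma and an exact 2-sided permutation p = 0.1, the smallest possible. Ptges passed in 0 of 16 alternatives, with p between 0.0572 and 0.491, both ends after adjustment. Its log2 difference lay between 0.69 and 1.20 with each array left out in turn. It was 0.76 after quantile normalization, 0.88 after median centring and 0.67 with N replicate 1 and NF replicate 2 both left out. As for Ptgs2, the other alternatives leave the difference as it was and could not turn its sign. Replicate 2 held the highest Ptges value in NF and in N, and in NF it also held the highest Ptgs2 value.

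The promoter of Ptges is shown beside that of Ptgs2 because the values of these genes had opposite signs. The 250 bases before its RefSeq start, GRCm38.p6 chr2:30903298-30903547 on the minus strand, are given 5′ to 3′ with motif matches in capitals.
Ptges upstream: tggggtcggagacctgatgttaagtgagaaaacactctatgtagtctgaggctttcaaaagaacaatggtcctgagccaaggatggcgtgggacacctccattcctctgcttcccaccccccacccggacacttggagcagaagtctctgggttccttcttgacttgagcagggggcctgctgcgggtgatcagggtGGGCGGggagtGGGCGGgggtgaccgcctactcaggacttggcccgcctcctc
Of the motifs searched, Ptges held the GC box, at positions -53 to -48 and -42 to -37, and 5 of the 8 member windows held that motif. It held no match to the cAMP response element or to the short site, which was in 1 of the 8 member windows. Neither Ptgs2 nor Ptges passed the test of expression, and whether motifs bear on their values was not tested.

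The remaining synthases differed little. Ptges2, which encodes a second, membrane-associated prostaglandin E synthase of constant expression in many tissues, had a log2 expression of 4.75, 4.73 and 4.80 in NF and 4.64, 4.53 and 4.78 in N, replicates 1 to 3 in order. The groups overlapped through N replicate 3, and the log2 difference was 0.11 (95% interval -0.18 to 0.40, adjusted p = 0.780 from limma). Ptgis, the prostacyclin synthase gene, had 8.06, 7.80 and 8.03 in NF and 7.78, 8.41 and 8.40 in N. Its log2 difference was -0.23 (95% interval -0.68 to 0.22, adjusted p = 0.696 from limma). N replicate 1 lay below every NF array and the other N arrays above every one, and without N replicate 1 the log2 difference was -0.44 with an adjusted p = 0.103, over a range of 0.103 to 0.904 among all alternatives.

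None of the 4 genes of prostaglandin E2 receptors passed the test. Ptger4, whose receptor couples to Gs and raises cAMP, had a log2 expression of 4.25, 4.26 and 4.18 in NF and 4.04, 4.68 and 4.03 in N. The NF arrays lay within the range of the N arrays, and the log2 difference was -0.02 (95% interval -0.46 to 0.42, adjusted p = 0.977 from limma), with a positive sign, 0.19, once N replicate 2 was left out. Ptger1, the receptor linked to calcium, had 3.48, 3.57 and 3.58 in NF and 3.12, 3.39 and 3.68 in N, a log2 difference of 0.14 (95% interval -0.23 to 0.52, adjusted p = 0.778). The other two, Ptger2 and Ptger3, had NF values between 2.42 and 2.61 and between 2.19 and 2.52, and N values between 2.22 and 2.62 and between 2.50 and 2.54. Their log2 differences were 0.03 (95% interval -0.31 to 0.37, adjusted p = 0.952) and -0.14 (95% interval -0.45 to 0.16, adjusted p = 0.723 from limma). The means of Ptger1, Ptger2 and Ptger3 lay below 3.70, the median of all probe sets tested, where a difference in RNA can be compressed. For them the table cannot tell a low level from none, as it holds no detection calls.

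Hpgd encodes hydroxyprostaglandin dehydrogenase, which oxidizes prostaglandin E2 to an inactive product. Its log2 expression was 2.80, 2.59 and 2.45 in NF and 3.05, 2.65 and 2.77 in N, with overlap, and its mean also lay below 3.70. The log2 difference was -0.21 (95% interval -0.57 to 0.15, adjusted p = 0.652 from limma).

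**Figure D2:**
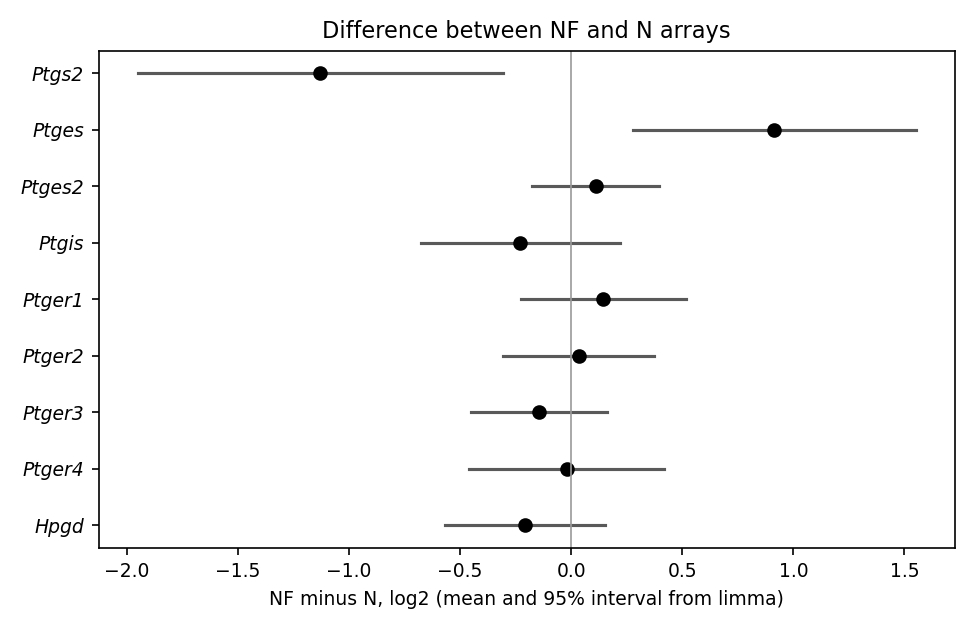
Difference of group means, NF minus N on the log2 scale (horizontal axis), for the 9 members, with the 95% interval from limma as a line. The intervals of Ptgs2 (-1.95 to -0.31) and Ptges (0.28 to 1.55) lie on opposite sides of 0 before adjustment for multiple tests, and the other 7 include 0.

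The other genes of eicosanoid metabolism were taken from a list of 65, of which 55 were measured. In that list 1 gene rose in NF, 0 fell and 54 did not pass (limma, with 1.83% of all genes higher and 0.720% lower), and the median log2 difference was -0.07, against -0.03 over all genes. At an unadjusted p under 0.05, limma had 7 higher and 3 lower, where it had 13.8% of all genes in either direction, and the methods' t-test had 5 and 2, where it had 11.0% of all genes. The gene that rose was Ptgfr, which encodes the receptor of prostaglandin F2α, coupled to calcium release. Its log2 expression was 3.94, 4.05 and 4.55 in NF, against 3.20, 2.91 and 2.96 in N, replicates 1 to 3 in order, so that every NF array was above every N array. The log2 difference was 1.15 (standard error 0.19, 95% interval 0.72 to 1.58), 2.23-fold higher in NF, with an adjusted p = 0.0243 from limma. Ptgfr had a mean of 3.60 over the 6 arrays and was thus among the dimmer probe sets. It passed without N replicate 1 (adjusted p = 0.00761) and missed the threshold without any of the other 5 arrays, with p between 0.0591 and 0.114, while its log2 difference stayed between 0.97 and 1.28. With the replicate number as a block the adjusted p was 0.0759, and by the methods' t-test, after adjustment, it was 0.290, the highest among its alternatives.

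**Figure D3:**
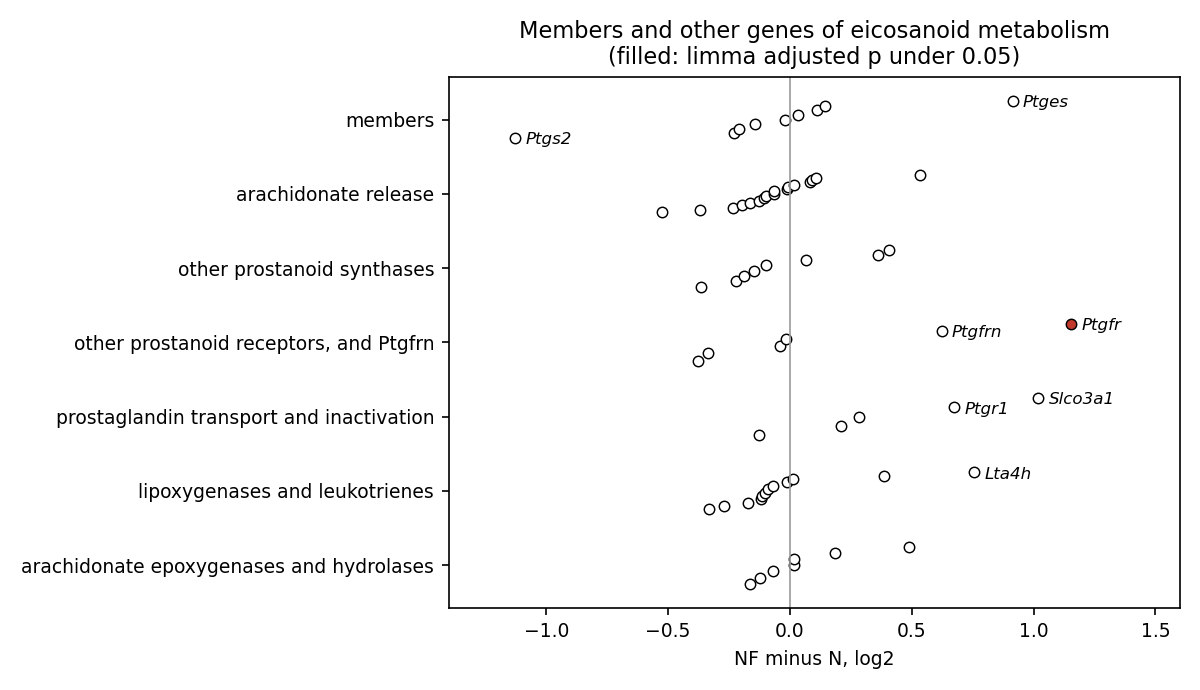
Difference of group means, NF minus N on the log2 scale (horizontal axis), for the 9 members and for 6 further groups of eicosanoid genes, with 1 point per gene, filled where the adjusted p was under 0.05 and named where the difference exceeded 0.6. Ptgfr at 1.15 is the filled point, and most genes lie near 0.

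The other 54 genes did not pass, and for each group the genes with the lowest p are given. Of 17 genes of arachidonate release, 1 had a higher and 2 a lower mean at an unadjusted p under 0.05, near the 13.8% of all genes at that p. Pla2g15, a lysosomal phospholipase, had a log2 difference of 0.54 (adjusted p = 0.197) and Pla2g12a, a secreted phospholipase, one of -0.53 (adjusted p = 0.338 from limma). Pla2g4a, the cytosolic phospholipase that supplies arachidonic acid to cyclooxygenases and a direct neighbour of Ptgs2 on chromosome 1 in RefSeq's order of protein-coding genes, was looked up after its values were seen. It had 7.94, 8.14 and 7.69 in NF and 7.78, 7.99 and 8.60 in N, a log2 difference of -0.20 (95% interval -0.72 to 0.33, adjusted p = 0.783). Of 8 other prostanoid synthases, Akr1b8, an aldo-keto reductase, had a log2 difference of 0.41 (adjusted p = 0.254). Ptges3, the cytosolic prostaglandin E synthase that is also the Hsp90 co-chaperone p23, had 3 probe sets with log2 differences of -0.36, -0.07 and 0.02, which did not share a sign.

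The group of other prostanoid receptors held 5 receptor genes and Ptgfrn, which encodes a protein that binds the prostaglandin F2α receptor. In it Tbxa2r, the thromboxane receptor, followed Ptgfr with a log2 difference of -0.38 (adjusted p = 0.211 from limma), at log2 levels of 2.89 to 2.95 in NF and 3.23 to 3.45 in N. Of 5 genes of transport and inactivation, 4 had a higher mean in NF, as did 7590 of all 16797 genes. Abcc4, 1 of these 4, was looked up after its values were seen. It had 6.60, 6.57 and 6.56 in NF and 5.63, 6.47 and 6.99 in N, lowest on N replicate 1. Its log2 difference was 0.21 (adjusted p = 0.830 from limma). Ptgr1, a reductase that acts on prostaglandin and leukotriene metabolites, had 7.17, 6.98 and 7.55 in NF and 6.24, 6.74 and 6.69 in N. Its log2 difference was 0.67 (adjusted p = 0.160 from limma), and 0.51 without N replicate 1, where Ptgr1 was lowest. The transporter gene Slco3a1 had a log2 difference of 1.02 (adjusted p = 0.249), which was 0.60 without N replicate 1, where it was lowest at 5.39.

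Of 12 genes of lipoxygenases and leukotrienes, 11 had a mean below 3.70. The exception was Lta4h, the leukotriene A4 hydrolase, with 7.43, 7.35 and 7.65 in NF and 5.78, 7.20 and 7.19 in N. Its log2 difference of 0.76 (adjusted p = 0.423 from limma) rested on N replicate 1, without which it was 0.28 (adjusted p = 0.339). Alox5ap, which presents arachidonic acid to 5-lipoxygenase, had a log2 difference of 0.39 (adjusted p = 0.392). In the group of 7 epoxygenases and hydrolases the lowest p belonged to Cyp2j6, a cytochrome P450, with a log2 difference of 0.49 (adjusted p = 0.181), followed by Ephx2, the soluble epoxide hydrolase, with 0.19 (adjusted p = 0.699 from limma).

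**Figure D4:**
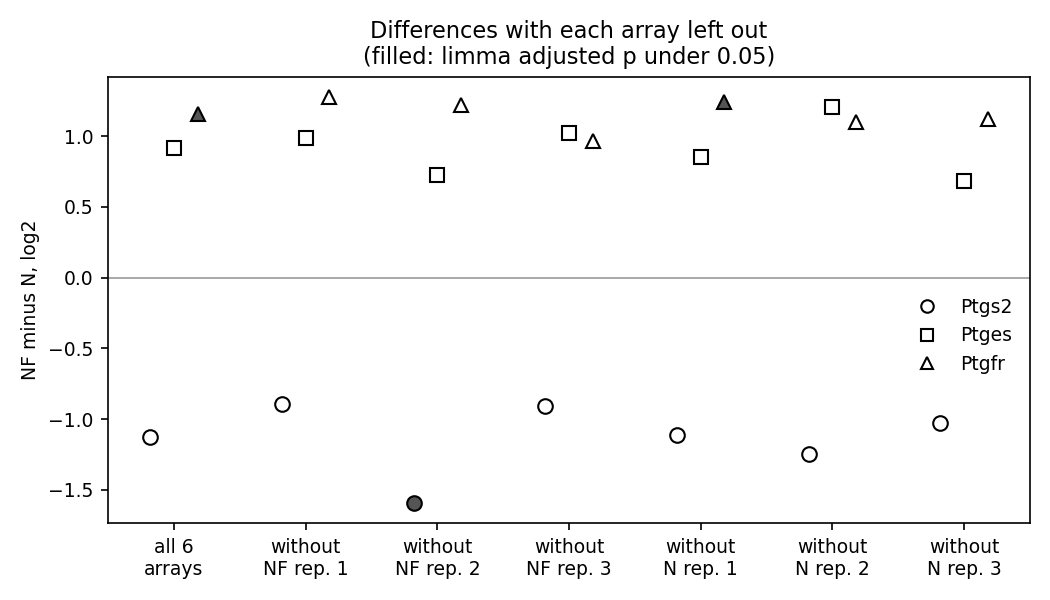
Difference of group means, NF minus N on the log2 scale (vertical axis), of Ptgs2, Ptges and Ptgfr with all 6 arrays and with each array left out, filled where the adjusted p was under 0.05. Ptgs2 passed without NF replicate 2 alone, Ptgfr with all arrays and without N replicate 1, and Ptges in none of these fits.

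Genes with the array pattern closest to Ptges and Ptgs2 were found by the root mean square difference over the 6 arrays, after each gene's own mean was subtracted. Ptges met the rule for this, and Ptgs2 was added after its values were seen. Closest to Ptges were Gxylt2, a xylosyltransferase (0.15), Galm, the galactose mutarotase (0.16), and Rab7b, a small GTPase of endosomes (0.16), where the values are on the log2 scale. Closest to Ptgs2 was Hspa5, which encodes BiP, the main chaperone of the ER lumen (0.13), followed by Tnnt2, a troponin (0.17), and Fhl3, a LIM domain protein (0.20). Hspa5 had 10.05, 11.28 and 10.10 in NF and 11.81, 11.57 and 12.10 in N, replicates 1 to 3 in order. Its NF replicate 2 was the highest of the NF arrays, but it stayed below every N array. As Hspa5 was picked for its closeness to Ptgs2 on these same arrays, a shared high NF replicate 2 follows from the choice. The measure is a description over 6 arrays.

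**Figure D5:**
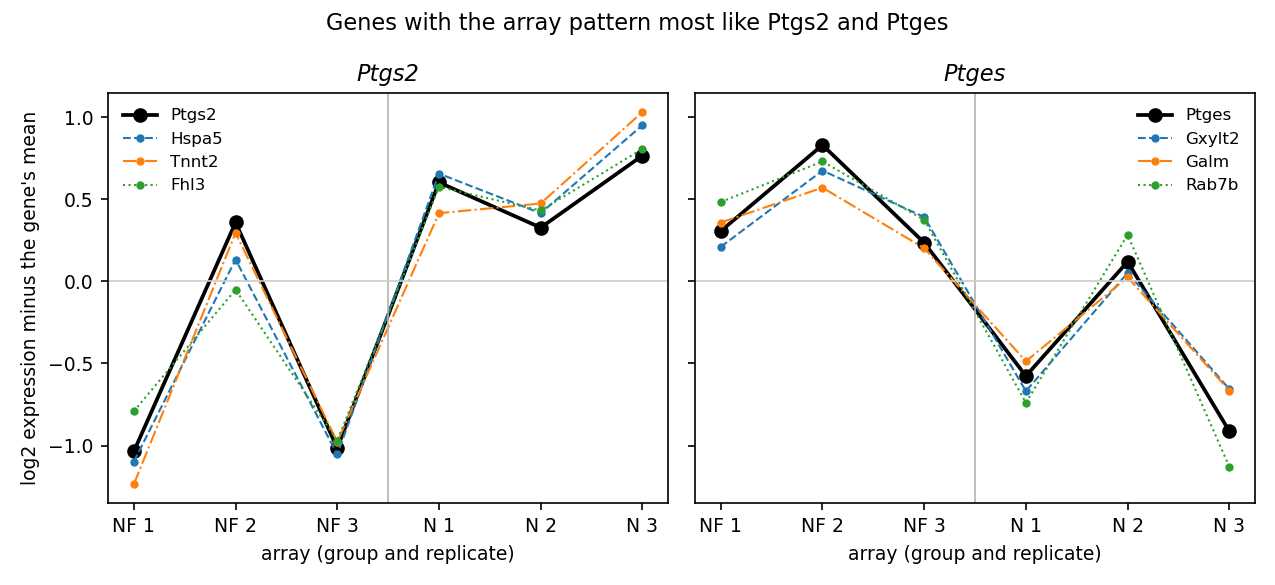
Log2 expression minus the gene's mean over the 6 arrays (vertical axis) on each array (horizontal axis), for Ptgs2 and Ptges in black and for the 3 genes closest to each. The curves of Ptgs2 and Hspa5 differ by 0.13 in root mean square. Both are high in NF replicate 2 relative to the other NF arrays, which the choice by closeness favours.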

How the data were processed

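RNA of NIH3T3 cells was measured on 6 Affymetrix arrays, 3 NF and 3 N, grouped by the titles in the labels. The authors computed log2 expression values with RMA (R/Bioconductor package oligo, its version not given in the sources used here), annotated probe sets from ENSEMBL and discarded those without an Entrez gene. RMA is meant to equalize the distributions of the arrays and compresses differences of dim probe sets. The values used here were not fully equalized. N replicate 1 had an SD over probe sets of 2.19 on the log2 scale, against 2.37 to 2.42 for the other arrays. Which arrays were normalized together is not given in the sources used here, and neither are detection calls.

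Of the 22035 deposited probe sets, 18197 are paired with 1 gene symbol by the platform annotation, 1260 with several and 2578 with none listed there. The 18197, for 16797 genes, were compared in R 4.3.3 with limma 3.58.1 (lmFit, eBayes, 2-sided), and p-values were adjusted over the 18197 by Benjamini-Hochberg, with a threshold of 0.05. For a gene with several probe sets the lowest p was taken, as in the methods of the study. All 6 columns of values were matched to samples, with 0 left over. The t-test of the general statistics section (the methods' t-test), a replicate block, quantile normalization, median centring, a filter on dim probe sets (mean log2 below 3.70), the probe set with the highest mean, eBayes with trend and robust estimation, and leaving out each array were the alternatives. Adjustment over all 22035 probe sets and leaving out N replicate 1 with NF replicate 2 were added after seeing the data. The members, lists and tests were chosen with earlier results of these data known.

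The genes named are the members, any gene of the wider list past the threshold, the 2 with the lowest p in each of its 6 groups, and the 3 genes most like a member whose groups did not overlap and differed by 0.5 or more on the log2 scale. The code was tested on simulated data. Promoter windows are from RefSeq (GRCm38.p6), with 8 of 10 members matched. Precision is limited by the number of arrays.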

Additional observations from a re-analysis of the deposited data

How the results depend on the processing

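The count of members past the threshold stayed at 0 in the other alternatives run and was 1, Ptgs2, without NF replicate 2 (range 0 to 1 with each array left out) and when N replicate 1 and NF replicate 2 were both left out. The wider list, with Ptgfr called, gave 0 with the replicate block, without dim probe sets (which removes Ptgfr) and by the methods' t-test after adjustment, 0 to 1 with each array left out, 3 with those 2 arrays left out (Pla2g15, Ptgfr and Slco3a1), and 7 by the methods' t-test without adjustment. The count over all genes, 428, was 80 with the replicate block, 870 after quantile normalization, 1 by the methods' t-test after adjustment and 1861 by the unadjusted one (1851 with the probe set of each gene chosen by limma's p), 239 with adjustment over all probe sets of the table, 1038 without those 2 arrays, and 1 to 922 with each array left out. Same-numbered arrays of NF and N had correlations of deviations of -0.0748, -0.0780 and -0.0736, and 0 of 3 NF arrays correlated best with their own number, so the block is no pairing known from the design. The block changed no call of a member. Signs turned in small differences: Ptger2 was -0.0036 after median centring and -0.0849 to 0.11 with each array left out, Ptger4 -0.13 to 0.19 with each array left out, Ptger1 -0.0064 without those 2 arrays, Ptges2 -0.0388 after quantile normalization, and Ptges3 0.0242 with its brightest probe set. The cause was not tested. Limits are the 3 arrays a group, the lack of detection calls for dim probe sets, and a harvest at 72 h after a last dose at 48 h.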
